A study of Mus musculus with 22 samples.

Results

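Strong accessible windows that were equally open in 3 subsets of splenic dendritic cells (DCs) numbered 873, each of 150 bases, out of 177956 windows that the authors centred on the summits of their ATAC-seq peaks. Members were chosen by their ATAC counts: the mean over the 6 libraries had to reach 10 CPM (the count scaled by the library's sum of window reads), and the highest library could be at most 1.25 times the lowest. Of 22565 windows that reached 10 CPM, 14198 had a ratio above 1.25 and below 2 and 7494 a ratio of 2 or more, which made the comparison sets. Because the members were selected on these counts, their ATAC levels and differences are given as a description, with no test. The members lay in 790 of 74217 peaks, 77 of which held more than 1, at most 4. Overlap between 21 neighbouring pairs means shared reads, so members were not independent of each other.

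Conventional DCs (cDCs) take up antigen and present it to T cells. cDC1s, marked by XCR1, are known for presenting antigen from dead cells to CD8 T cells, and cDC2s are a mixed population that here was split by T-bet, the T-box transcription factor encoded by Tbx21. ATAC-seq cuts DNA where nucleosomes leave it exposed, so reads gather at active promoters and enhancers. Promoters of widely used genes tend to lie in CpG islands bound by broadly expressed factors such as SP, NRF1, NF-Y, ETS and YY1, whereas distal enhancers tend to carry motifs of lineage factors such as PU.1, IRF, Runx, C/EBP and AP-1.

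Cells came from Tbx21RFP-cre mice, whose red fluorescent reporter marks T-bet expression, 6 to 10 weeks old and of both sexes, and every group carried the reporter allele. Reporter-positive (T-bet+) cDC2s, reporter-negative (T-bet-) cDC2s and cDC1s were sorted from pooled spleens for ATAC-seq, with 50000 cells per library and 2 libraries per subset. RNA-seq covered the same 3 subsets, with 3 libraries each in the spleen and, in the mesenteric lymph nodes (MLN), 2 of each cDC2 subset and 3 of cDC1s. The sources used here do not tie libraries to mice beyond the pools, so p-values measure the spread between these libraries, and a subset is limited to what the reporter showed at the sort.

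The ATAC libraries held 7270164 to 10081555 window reads and the RNA libraries 20993220 to 29006549 counted reads. Xcr1 was at 773 to 1121 CPM in spleen cDC1s against 4.28 to 12.3 in both cDC2 subsets, and Tbx21 at 16.6 to 23.9 CPM in T-bet+ cDC2s against 0.140 to 2.28 in the other subsets, so the spleen libraries carried the markers of their labels. In the MLN Xcr1 was at 452 to 1320 CPM in cDC1s, 7.99 to 8.05 in T-bet- cDC2s and 5.44 and 36.1 in the 2 T-bet+ libraries. Tbx21 was at 3.11 and 7.53 CPM in these 2, against 0.264 to 0.966 in the other MLN subsets. Whether cDC1s were carried over into a T-bet+ library was not tested. GC content was taken from the most GC-rich short stretch of each gene's longest transcript. Levels were taken as log2 CPM relative to the gene's mean over the spleen libraries. In 3 spleen RNA libraries, T-bet- cDC2 replicates 1 and 2 and cDC1 replicate 3, these relative levels fell with that GC content across 7873 genes. Spearman's rank correlation was -0.45, -0.30 and -0.30 across genes, which are not independent replicates, whereas it lay between 0.18 and 0.32 in the other 6. The spleen RNA results are therefore also given with this library class as a term of the fit, an alternative chosen after seeing the data. MLN correlations, across 7979 genes, were -0.06 and -0.22 for the T-bet+ pair, and -0.32 and 0.22 for the T-bet- pair. For MLN cDC1 replicates 1 to 3 they were -0.03, 0.21 and 0.25. No MLN fit with library class is given, so its part in the MLN calls was not tested. The summed CPM of 8 monocyte and macrophage markers also differed between the spleen subsets, from 105 to 197 in the cDC1 libraries to 421 to 481 in T-bet+ and 668 to 1023 in T-bet- ones. Its part in the RNA results was not tested. In bulk samples fewer cells of a type and less RNA per cell cannot be told apart.

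The following sequences are the strongest members outside annotated exons, shown because they set the upper end of the range. They were read from the RefSeq GRCm38.p6 genome (mm10) on the + strand, as are all sequences printed here. Capitals mark exact matches, on either strand, to the motifs named for each window.
D030056L22Rik, chr19:18713028-18713177: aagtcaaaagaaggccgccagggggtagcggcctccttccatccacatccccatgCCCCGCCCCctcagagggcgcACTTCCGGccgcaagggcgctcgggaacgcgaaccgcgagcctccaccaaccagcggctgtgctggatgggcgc
Herc2, chr7:56050015-56050164: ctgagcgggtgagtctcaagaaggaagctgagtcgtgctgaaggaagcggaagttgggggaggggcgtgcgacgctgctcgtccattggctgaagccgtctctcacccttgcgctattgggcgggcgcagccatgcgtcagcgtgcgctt
Hmgcs1, chr13:119690097-119690246: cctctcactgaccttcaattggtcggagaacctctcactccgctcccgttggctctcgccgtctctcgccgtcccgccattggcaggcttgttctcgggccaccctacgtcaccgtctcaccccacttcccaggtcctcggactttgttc
Cstf3, chr2:104590276-104590425: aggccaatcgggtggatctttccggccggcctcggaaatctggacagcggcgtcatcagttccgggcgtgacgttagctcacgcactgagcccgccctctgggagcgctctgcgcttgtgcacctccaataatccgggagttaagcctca
intergenic window, chr5:16469965-16470114: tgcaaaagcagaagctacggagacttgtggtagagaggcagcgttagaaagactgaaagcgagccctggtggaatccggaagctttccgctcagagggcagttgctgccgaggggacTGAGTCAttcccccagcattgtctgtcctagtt
The capitals in the D030056L22Rik window mark SP/KLF (GGGGCGGGG, read on the other strand) and ETS (CCGGAAGT, read on the other strand), and those in the intergenic window mark AP-1 (TGANTCA). The Herc2, Hmgcs1 and Cstf3 windows held none of the 19 motifs searched in these exact letters.

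The most even members outside exons come next, since they show what the rule picked at its lower end. The capitals in the Hap1 window mark IRF (GAAANNGAA) and SP/KLF, and the Fam98b window held no match.
Fam98b, chr2:117249886-117250035: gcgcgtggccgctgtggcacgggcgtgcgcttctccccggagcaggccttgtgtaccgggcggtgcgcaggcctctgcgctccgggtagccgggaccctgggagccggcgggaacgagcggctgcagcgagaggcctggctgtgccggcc
Hap1, chr11:100355483-100355632: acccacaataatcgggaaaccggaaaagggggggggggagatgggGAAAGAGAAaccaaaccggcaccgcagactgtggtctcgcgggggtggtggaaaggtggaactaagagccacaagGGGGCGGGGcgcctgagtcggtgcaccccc

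These windows are the strongest members outside exons that carried a given motif, shown because motif content differed between members and less even windows in the shares given further on. Capitals mark NRF1 (CGCNTGCG) and NF-Y (CCAATCA) at Ddx10, SP/KLF and ZBTB33 (CTCGCGAG) at Uhrf2, ZBTB33 and CTCF at Bclaf3, CRE/ATF (TGACGTCA) at Zfp869 and PU.1 (GAGGAAGT) at Plekhm3. At Chaf1a they mark ZBTB33, T-box (AGGTGTNA) and E-box (CACGTG), where the T-box and E-box matches overlap.
Ddx10, chr9:53248067-53248216: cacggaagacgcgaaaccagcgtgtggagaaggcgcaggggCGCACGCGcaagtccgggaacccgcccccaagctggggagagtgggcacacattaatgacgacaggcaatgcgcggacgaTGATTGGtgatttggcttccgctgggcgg
Uhrf2, chr19:30030343-30030492: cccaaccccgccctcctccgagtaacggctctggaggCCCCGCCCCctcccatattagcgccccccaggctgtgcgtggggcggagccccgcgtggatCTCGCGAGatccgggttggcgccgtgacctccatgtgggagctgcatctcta
Bclaf3, chrX:159532453-159532602: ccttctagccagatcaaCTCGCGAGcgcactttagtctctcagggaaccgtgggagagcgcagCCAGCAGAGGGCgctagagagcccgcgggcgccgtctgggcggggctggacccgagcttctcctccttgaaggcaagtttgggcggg
Zfp869, chr8:69716452-69716601: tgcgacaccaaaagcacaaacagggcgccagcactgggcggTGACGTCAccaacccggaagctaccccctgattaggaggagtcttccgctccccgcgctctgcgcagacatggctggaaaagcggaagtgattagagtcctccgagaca
Plekhm3, chr1:64925776-64925925: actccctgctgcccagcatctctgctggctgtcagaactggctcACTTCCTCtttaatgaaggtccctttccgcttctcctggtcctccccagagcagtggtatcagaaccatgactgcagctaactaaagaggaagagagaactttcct
Chaf1a, chr17:56040269-56040418: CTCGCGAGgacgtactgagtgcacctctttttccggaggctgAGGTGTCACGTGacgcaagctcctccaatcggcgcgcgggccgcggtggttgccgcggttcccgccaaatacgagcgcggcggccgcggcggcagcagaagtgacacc

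The last 3 windows lie at genes whose RNA differed between the subsets, which are described further on. Capitals mark AP-1 at Elk3, PU.1 at Cd81, and E-box and NF-Y at Mycl.
Elk3, chr10:93309674-93309823: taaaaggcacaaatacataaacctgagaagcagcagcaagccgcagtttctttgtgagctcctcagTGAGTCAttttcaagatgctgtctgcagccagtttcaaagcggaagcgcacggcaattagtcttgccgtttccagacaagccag
Cd81, chr7:143059568-143059717: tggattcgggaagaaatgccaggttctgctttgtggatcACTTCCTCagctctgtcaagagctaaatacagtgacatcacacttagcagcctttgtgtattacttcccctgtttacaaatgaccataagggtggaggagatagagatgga
Mycl, chr4:122997180-122997329: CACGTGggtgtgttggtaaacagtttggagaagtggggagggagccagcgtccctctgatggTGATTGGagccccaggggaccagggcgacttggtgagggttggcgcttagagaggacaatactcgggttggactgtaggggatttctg

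The members spanned a mean of 10.0 to 124 CPM with a median of 23.0 CPM. Their ratio of highest to lowest library ran from 1.026 to 1.250 with a median of 1.204. Their median per library was 22.6 to 23.2 CPM in all 6 libraries. They took 2.39% to 2.52% of the window reads of each library. The median member held 233 and 228 reads in the T-bet+ cDC2 libraries, 192 and 223 in the T-bet- cDC2 libraries and 185 and 164 in the cDC1 libraries. Counting error alone at these depths has an SD of 6.55% to 7.81% of the count, against which the spread of a member can be read. The chi-square of the 6 counts per degree of freedom had a median of 0.988 over the members, with 5% of members below 0.304 and 5% above 3.16, against medians of 5.32 and 20.6 in the comparison sets with ratios of 1.25 to 2 and of 2 or more. PCR reads without molecular identifiers are not independent molecules, and this figure covers counting error only. The same counts set the members and the comparison sets by their ratio, so the order of these chi-square medians follows from the selection.

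The strongest member lay 90 bases upstream of a start of D030056L22Rik at a mean of 124 CPM, with 128 and 127 CPM in T-bet+ cDC2s, 136 and 122 CPM in T-bet- cDC2s and 118 and 114 in cDC1s. The second lay 106 bases upstream of Herc2, which encodes a ubiquitin ligase, with 121 and 134 CPM in T-bet+ cDC2s, 124 and 121 CPM in T-bet- cDC2s and 116 and 107 in cDC1s. Both cDC1 libraries were the lowest of the 6 at both windows, within the 1.25-fold limit of the rule. The window 207 bases upstream of Hmgcs1, an enzyme of cholesterol synthesis, had 101 and 107 CPM in T-bet+ cDC2s, 107 and 111 CPM in T-bet- cDC2s and 94.0 and 90.6 in cDC1s, again with both cDC1 libraries lowest. The only member outside a promoter among the strongest 12 was the intergenic window on chromosome 5, whose centre was 39143 bases from the nearest start, with 92.3 and 88.6 CPM in T-bet+ cDC2s, 96.9 and 93.7 CPM in T-bet- cDC2s and 88.3 and 86.2 in cDC1s. The other 8 of the strongest 12, including those at Slc25a32 (118 CPM), Ect2 (108 CPM), Nmt2 (107 CPM) and Arl15 (103 CPM), lay in promoters.

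The most even member lay 222 bases downstream of the start of Fam98b, at 13.6 and 13.6 CPM in T-bet+ cDC2s, 13.7 and 13.5 CPM in T-bet- cDC2s and 13.6 and 13.9 in cDC1s, a ratio of 1.026. The window 175 bases upstream of Hap1 was almost as even, at 12.2 and 11.5 CPM in T-bet+ cDC2s, 11.6 and 11.3 CPM in T-bet- cDC2s and 11.9 and 12.1 in cDC1s. Among the 5 most even were also windows at Pfkp (10.1 CPM, ratio 1.067) and Phip (27.7 CPM, 1.076).

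Over all members, replicates differed by a median of 1.072-fold (T-bet+ cDC2s), 1.065-fold (T-bet-) and 1.062-fold (cDC1s). The highest subset mean exceeded the lowest by a median of 1.10-fold. The lowest library was most often cDC1 replicate 2, the shallowest, at 237 members (27.1%), and least often T-bet- cDC2 replicate 1, at 95 (10.9%). Just inside the ratio limit lay windows at Pyurf (1.2497), Mgat4b (1.2498) and Mtf1 (1.2498), and just outside it windows at Gstcd (1.2503), Uevld (1.2504) and Ift122 (1.2505). Just inside the limit on strength lay windows at Cdc25a (10.03 CPM), AV356131 (10.10 CPM) and N4bp2 (10.11 CPM), and just outside it windows at Ajm1 (9.990 CPM), Gm37472 (9.995 CPM) and in an intron of Gm43744 (9.998 CPM).

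**Figure D1:**
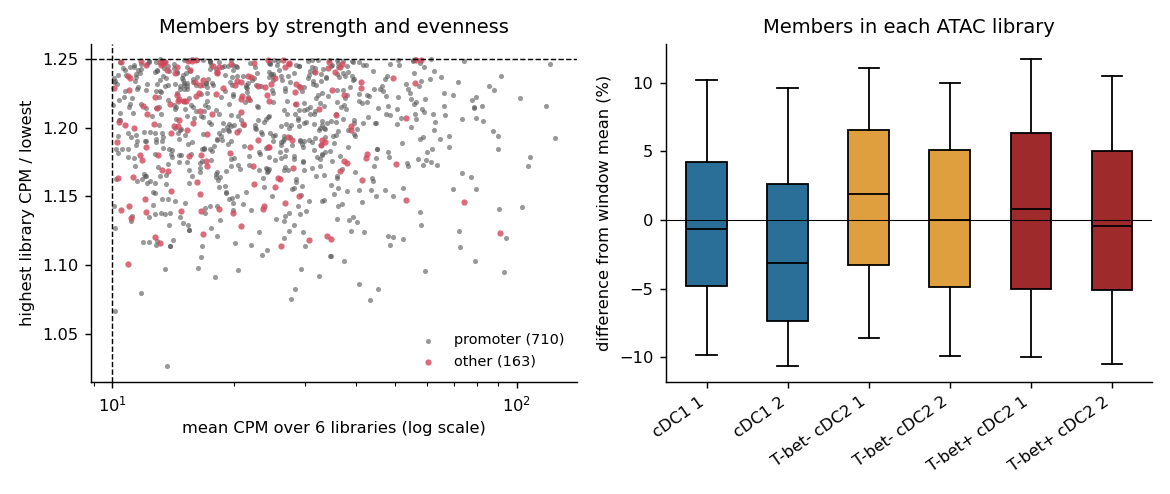
The left plot gives each member's mean CPM over the 6 libraries on a log axis against its ratio of highest to lowest library, with dashed lines at the limits of 10 CPM and 1.25, grey for 710 promoter windows and red for the other 163. The right plot gives the difference of each library from the window's mean in percent over the 873 members (box: quartiles with the median; whiskers: 5% to 95%), and all 6 boxes sit around 0 because the rule chose windows for it.

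Evenness depended on how libraries were scaled. By column sums the median log2 difference of subset means over the members was -0.01 for T-bet+ against T-bet- cDC2s, 0.03 for T-bet+ cDC2s against cDC1s and 0.03 for T-bet- cDC2s against cDC1s. With effective library sizes from the trimmed mean of M values (TMM, edgeR), which centre the bulk of all windows, the same medians were 0.08, 0.22 and 0.13, with cDC1s lower. Under that scaling 528 windows passed the rule, of which 280 were members (32.1% of the members and 53.0% of those passing), and DESeq2's size factors passed 516 windows including 270 members. All 873 members were even relative to the column sums, and 280 of them under both scalings. For the strongest window, at D030056L22Rik, the ratio was 1.192 by column sums and 1.303 by TMM.

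Most members sat at transcript starts. A promoter, defined as a window centre within 2000 bases of a start in GENCODE M21, held 710 members (81.3%), against 70.2% of strong windows with a ratio of 1.25 to 2, 35.5% of those with a ratio of 2 or more and 29.7% of all windows. Of the rest, 84 lay in introns, 69 between genes, 7 in exons and 3 were farther than 50000 bases from a gene. Within 200 bases of a start lay 514 members (58.9%), against 45.5%, 13.6% and 9.87%. The median distance to a start was 142 bases against 257, 4945 and 7062. The promoter share was higher in stronger members, from 78.1% at 10 to 20 CPM to 94.7% at 80 CPM or more. It rose likewise in windows with a ratio of 1.25 to 2 (60.9% to 98.5%) and of 2 or more (33.2% to 94.7%). At 40 to 80 CPM it was 90.3% in members, against 88.6% and 62.5%. Of the 710 promoter members, 394 (55.5%) lay upstream of the start. Protein-coding starts of different genes on opposite strands lay within 1000 bases of the centre of 75 members. These were 10.6% of the members in promoters, against 10.7% of promoter windows with a ratio of 1.25 to 2.

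The members were rich in CpG. Their median GC content was 64.0% and their median number of CpG 12, against 60.0% and 9, 50.7% and 2, and 49.3% and 2 in windows with a ratio of 1.25 to 2, of 2 or more and in all windows. A CpG observed to expected ratio over 0.6 was found in 67.9% of members, against 54.9%, 15.8% and 13.3%. The 163 members outside promoters had a median GC content of 50.0%, a median of 2 CpG, and 16.0% of them were over 0.6. By strength, members made up 2.87% of strong windows at 10 to 20 CPM, 5.42% at 20 to 40, 5.32% at 40 to 80 and 3.42% at 80 or more, so even windows were found at all levels.

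**Figure D2:**
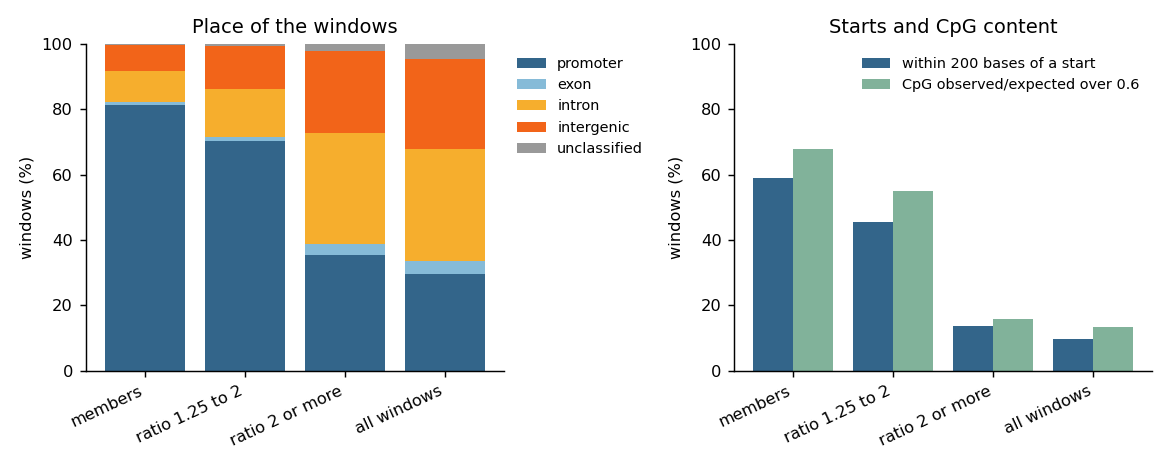
The left plot stacks, in percent of windows, the class of each window for members, strong windows with a ratio of 1.25 to 2, strong windows with a ratio of 2 or more and all windows. The right plot gives the percent within 200 bases of a start and the percent with a CpG observed to expected ratio over 0.6, and both are highest in the members, at 58.9% and 67.9%.

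Each window was searched on both strands for exact matches to 19 motifs, and a match is a description of the letters, not a bound site. Motifs typical of CpG-rich promoters were more frequent in members than in less even windows. SP/KLF (GGGGCGGGG) was in 100 members (11.5%), against 9.37% of windows with a ratio of 1.25 to 2, 2.58% of those with a ratio of 2 or more and 1.79% of all windows. NRF1 (CGCNTGCG) was in 86 (9.85%), against 7.50%, 1.63% and 1.18%, and ETS (CCGGAAGT) in 43 (4.93%), against 3.32%, 0.680% and 0.547%. The rarer YY1 (AAGATGGCG, 18 members), CRE/ATF (TGACGTCA, 22) and ZBTB33 (CTCGCGAG, 14) had shares of 2.06%, 2.52% and 1.60%, against 0.238%, 0.332% and 0.106% of all windows. In windows with a ratio of 1.25 to 2 these shares were nearer, at 1.16%, 1.51% and 0.747%. NF-Y (CCAATCA) was in 46 members (5.27%) and E-box (CACGTG) in 51 (5.84%), against 5.05% and 5.49% of windows with a ratio of 1.25 to 2.

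Most motifs of lineage and signal-dependent factors were less frequent in members than in the most uneven windows. AP-1 (TGANTCA) was in 49 members (5.61%), against 16.3% of windows with a ratio of 2 or more and 7.90% of all windows. PU.1 (GAGGAAGT, which shares GGAAGT with ETS) was also in 49 (5.61%), against 11.97% and 5.50%. Runx (TGTGGTT) was in 27 (3.09%), against 9.67% and 5.23%, and C/EBP (TTGCNNAA) in 28 (3.21%), against 6.93% and 5.89%. T-box (AGGTGTNA), the motif of T-bet's family, was in 6 members (0.687%), against 1.84% and 1.92%, and IRF (GAAANNGAA) in 33 (3.78%), against 7.29% and 5.61%. In windows with a ratio of 1.25 to 2, AP-1, PU.1 and Runx had shares of 6.71%, 6.82% and 3.95%. C/EBP, T-box and IRF had 4.15%, 1.11% and 4.55% there. CTCF, searched with a longer pattern, was in 11 members (1.26%), above the 0.694% of windows with a ratio of 2 or more. That was below the 1.92% of windows with a ratio of 1.25 to 2 and the 2.17% of all windows. Of the other 4 motifs, NF-kB (GGGANTTCC) was in 13 members (1.49%), Nr4a (AAAGGTCA) in 6 (0.687%), RFX (GTTGCCATG) in 5 (0.573%) and ZNF143 (CTACAATTC) in 2 (0.229%). Their shares were 1.63%, 0.803%, 0.331% and 0.239% at a ratio of 1.25 to 2, and 2.58%, 1.53%, 0.254% and 0.0801% at 2 or more. In all windows they were 1.08%, 1.01%, 0.240% and 0.0792%.

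**Figure D3:**
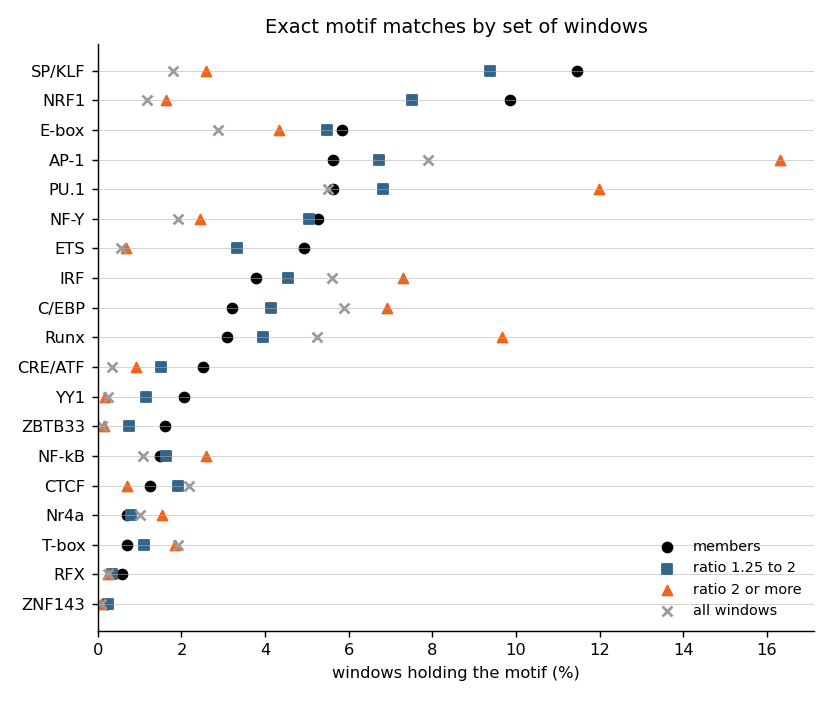
Each row is a motif and the horizontal axis the percent of windows holding an exact match, for members (black circles), strong windows with a ratio of 1.25 to 2 (blue squares), strong windows with a ratio of 2 or more (orange triangles) and all windows (grey crosses). SP/KLF at 11.5% leads among members and AP-1 at 16.3% among windows with a ratio of 2 or more.

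Motif shares differed by place. Among the 710 promoter members SP/KLF was in 13.7% and NRF1 in 11.3%, close to the 12.7% and 10.2% of promoter windows with a ratio of 1.25 to 2 and above the 5.98% and 3.69% of those with a ratio of 2 or more. PU.1 was in 3.10% of promoter members against 8.16% of promoter windows with a ratio of 2 or more, and AP-1 in 3.52% against 11.7%. Promoter windows with a ratio of 1.25 to 2 were close to the members, with PU.1 in 3.54% and AP-1 in 3.42%. The 163 members outside promoters looked different, with PU.1 in 27 (16.6%), AP-1 in 24 (14.7%), Runx in 17 (10.4%), IRF in 14 (8.59%) and CTCF in 5 (3.07%). The same shares in strong windows outside promoters with a ratio of 2 or more were 14.1%, 18.8%, 11.6%, 8.44% and 0.703%. In those with a ratio of 1.25 to 2 they were 14.5%, 14.5%, 8.54%, 7.87% and 4.07%, so CTCF was not more frequent in members. YY1, ZBTB33 and T-box had no match in the 163, and were rare also outside promoters at a ratio of 1.25 to 2 (0.0946%, 0.0% and 1.54%). The Plekhm3 intron and the intergenic window of chromosome 5 printed above are examples, with PU.1 and AP-1.

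The RNA libraries are independent of the rule. The 710 promoter members had 639 nearest genes (578 protein coding), 567 of which were in the count table, and 550 passed the filter on low counts in the spleen and 551 in the MLN. Levels per length, as RPKM (reads scaled by gene length and library size) in the spleen, had medians over these linked genes of 6.19 (T-bet+ cDC2s), 5.73 (T-bet-) and 6.49 (cDC1s). They were 3.73, 3.59 and 3.83 over the 11857 tested genes with a length in GENCODE M21. Over genes with another strong window at a start and no member they were 5.04, 4.99 and 5.45. Between 12.4% and 14.5% of linked genes, against 26.6% to 27.3% of all, were under 1 RPKM. Most linked genes were thus expressed in each of the 3 subsets.

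Fewer linked genes than genes overall were called different, although the gap depended on the libraries and the contrast, and in the spleen the order turned with DESeq2 and where low counts were kept. By edgeR's quasi-likelihood test at an adjusted p under 0.05, 16 of 550 linked genes (2.91%) differed in the spleen between the cDC2 subsets, against 5.38% of all 14377 genes. Of these, 5 were higher in T-bet+ cDC2s (background 1.95%) and 11 were lower (3.44%). Between T-bet+ cDC2s and cDC1s 88 (16.0%) were called against 18.2% of all, 42 higher (9.97% of all) and 46 lower (8.20%). With the replicate number as a block the 88 became 58 (10.5%), against 13.4% of all. Between T-bet- cDC2s and cDC1s 73 (13.3%) were called against 15.9%, 38 higher (9.65%) and 35 lower (6.20%). In 4418 genes with another strong window at a start and no member, the shares called were 5.79%, 19.3% and 17.1%.

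Median log2 fold changes of the linked genes in these 3 contrasts were 0.08, -0.08 and -0.16, against -0.01, 0.03 and -0.01 over all genes tested. Of the linked genes, 13.1%, 20% and 20.2% exceeded an absolute log2 fold change of 1, against 23.0%, 30.5% and 30.7%. With library class as a term, 14 (2.55%), 142 (25.8%) and 93 (16.9%) linked genes were called, against 4.67%, 23.3% and 19.1% of all genes. The order against the background thus turned for T-bet+ cDC2s against cDC1s. Without T-bet- cDC2 replicate 3, 38, 114 and 122 linked genes were called (6.88%, 20.7% and 22.1%, against 8.30%, 20.3% and 20.3% of all). The order turned for both contrasts with cDC1s. Leaving out T-bet+ cDC2 replicate 1, 2 or 3 gave 8, 7 and 10 calls between the cDC2 subsets and 52, 54 and 50 against cDC1s. Without T-bet- cDC2 replicate 1 or 2 or cDC1 replicate 2, 45, 43 and 34 linked genes were called between T-bet- cDC2s and cDC1s. These were 8.14%, 7.78% and 6.15%, against 11.7%, 11.1% and 9.57% of all. Without cDC1 replicate 2, 51 were called between T-bet+ cDC2s and cDC1s (9.22%, against 11.8% of all).

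In counts simulated for T-bet+ cDC2s against cDC1s, the RNA test found 2 of 100 2-fold changes in each tissue, so uncalled genes may still differ. In the MLN no linked gene passed the test between T-bet+ and T-bet- cDC2s, as for all 15298 genes tested (0.00%). At an unadjusted p under 0.05 there were 27 of 551 (4.90%), against 9.44% of all genes, and DESeq2 called 6 linked genes (1.06%, against 0.963% of all) and edgeR without a filter 8 (1.41%, against 2.05%). Between T-bet+ cDC2s and cDC1s 25 (4.54%) were called, against 6.22% of all, and between T-bet- cDC2s and cDC1s 15 (2.72%), against 5.79%. The 25 calls became 4 without T-bet+ cDC2 replicate 1, 13 without either T-bet- cDC2 library, and 9 and 5 without cDC1 replicates 2 and 3. The shares of all genes fell too, to 2.25%, to 3.31% and 3.21%, and to 3.45% and 2.59%. The 15 calls became 1 and 2 without T-bet- cDC2 replicates 1 and 2, and 7 without cDC1 replicate 2 or 3. Here the shares of all genes were 1.08% and 1.41%, and 3.63% and 2.71%.

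**Figure D4:**
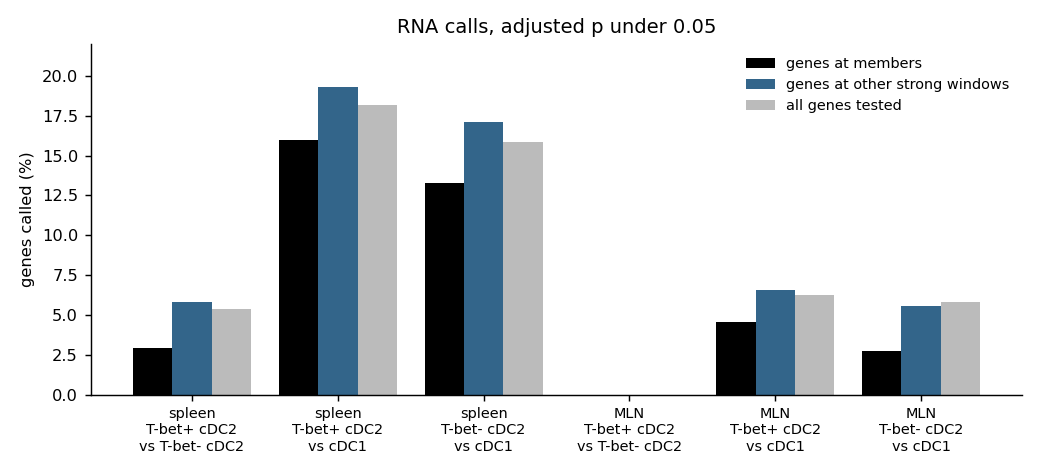
Bars give the percent of genes called at an adjusted p under 0.05 (edgeR) in each contrast of the spleen and MLN, for genes at members (black), genes at other strong windows (blue) and all genes tested (grey). The black bar is the lowest in each of the 5 contrasts with calls, for example 2.91% against 5.79% and 5.38% between the cDC2 subsets of the spleen.

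Some genes with an even window at a start had RNA levels that differed many-fold between subsets. Gpr171, a G protein-coupled receptor, had a member 8 bases upstream of its start (chr3:59101754-59101903), with 15.4 and 15.3 CPM in T-bet+ cDC2s, 13.5 and 14.3 CPM in T-bet- cDC2s and 14.6 and 16.5 in cDC1s. Its spleen RNA was at 34.0, 50.5 and 24.9 in T-bet+ libraries, 81.8, 47.6 and 37.7 in T-bet- libraries and 935, 1138 and 919 in cDC1 libraries (CPM), more than 10 times higher in every cDC1 library than in any cDC2 library. The log2 fold change was -4.77 ± 0.38 (SE) for T-bet+ cDC2s against cDC1s and -4.16 ± 0.37 for T-bet- cDC2s against cDC1s, with adjusted p of 3.43e-05 and 6.66e-05 (edgeR). In the MLN the second contrast was called as well (-3.37 ± 0.74, adjusted p = 0.0393, edgeR), but not under 5 of 13 alternatives. Gpr171 lies within the longer gene Med12l, and whether counting used strand is not stated.

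Other signalling genes with even windows also differed in RNA. Plcb4, a phospholipase C activated by G proteins, had members 88 bases upstream and 118 bases downstream of the same start, the latter with 14.0 and 12.3 CPM in T-bet+ cDC2s, 14.0 and 14.0 CPM in T-bet- cDC2s and 11.8 and 13.8 in cDC1s. Its spleen RNA was at 1.219, 1.66 and 2.32 in T-bet+ libraries, 4.67, 2.63 and 3.62 in T-bet- libraries and 32.3, 48.1 and 46.1 in cDC1 libraries, so cDC1 libraries did not overlap those of either cDC2 subset. It was called in the spleen (-4.60 ± 0.37 for T-bet+ cDC2s and -3.53 ± 0.35 for T-bet- cDC2s against cDC1s, adjusted p = 3.74e-05 and 0.000142, edgeR) and in the MLN (adjusted p = 0.00612 and 0.0121), where the call for T-bet- cDC2s was lost without either T-bet- cDC2 library. Cd81, a tetraspanin of the cell surface, had the PU.1-bearing member printed above 1067 bases downstream of its start, with 32.6 and 27.7 CPM in T-bet+ cDC2s, 30.7 and 30.6 CPM in T-bet- cDC2s and 34.4 and 33.0 in cDC1s. Its RNA was at 211, 145 and 173 in T-bet+ libraries, 603, 536 and 430.3 in T-bet- libraries and 1050.1, 856 and 988 in cDC1 libraries, a graded order with no overlap between subsets, and T-bet+ cDC2s were lower than T-bet- cDC2s by the test (-1.57 ± 0.20, adjusted p = 0.00257, edgeR). Exons of Cd81 overlap R74862 on the other strand.

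Transcription factors were among the most uneven genes in the other direction. Elk3, an ETS family factor, had a member with an AP-1 match 1062 bases downstream of its start, with 13.9 and 13.4 CPM in T-bet+ cDC2s, 16.5 and 16.2 CPM in T-bet- cDC2s and 16.7 and 13.5 in cDC1s, where the cDC1 replicates differed by more than the subset means. Its RNA was at 51.3, 58.4 and 71.3 in T-bet+ libraries, 40.1, 33.7 and 45.8 in T-bet- libraries and 5.75, 5.84 and 5.59 in cDC1 libraries, with all 6 cDC2 libraries above all cDC1 libraries. The log2 fold changes against cDC1s were 3.40 ± 0.24 and 2.80 ± 0.24 for the T-bet+ and T-bet- subsets (adjusted p = 1.52e-05 and 4.7e-05, edgeR), and both were called in the MLN (adjusted p = 0.0266 and 0.00957), the second lost without either T-bet- cDC2 library. Its exons overlap Cdk17 on the other strand. Nfe2l2, which encodes the oxidative stress factor NRF2, had a member 696 bases downstream, with 16.5 and 17.6 CPM in T-bet+ cDC2s, 17.2 and 17.5 CPM in T-bet- cDC2s and 18.8 and 16.9 in cDC1s. Its RNA was at 246, 283 and 184 in T-bet+ libraries, 1118, 864 and 648 in T-bet- libraries and 264, 256 and 222 in cDC1 libraries, highest in T-bet- cDC2s with no overlap, and was called against T-bet+ cDC2s (-1.88 ± 0.25 for T-bet+ minus T-bet-, adjusted p = 0.00256, edgeR) and against cDC1s (1.83 ± 0.25, adjusted p = 0.000877).

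Of 28 listed DC transcription factors with a strong window at a start, 3 had a member there. Etv6, an ETS family repressor, had members 118 and 24 bases upstream, at 28.96 and 27.6 CPM in T-bet+ cDC2s, 29.7 and 30.0 CPM in T-bet- cDC2s and 26.0 and 26.1 in cDC1s for the nearer, and its RNA was at 167, 202 and 167 in T-bet+ libraries, 233, 168 and 249 in T-bet- libraries and 165, 209 and 225 in cDC1 libraries. No contrast was called (adjusted p = 0.546, 0.69 and 0.762, edgeR). Nfkb2, a subunit of the non-canonical NF-kB pathway, had 2 members, and its RNA at 335, 330.0 and 363 in T-bet+ libraries, 75.1, 121 and 396 in T-bet- libraries and 215, 225 and 92.8 in cDC1 libraries was not called either (adjusted p = 0.499, 0.299 and 0.891, edgeR). The libraries that stood apart by GC (T-bet- cDC2 replicates 1 and 2 and cDC1 replicate 3) were the 3 lowest for Nfkb2. Mycl, a MYC family factor active in cDC1s, had a member 1156 bases downstream, with 13.9 and 12.5 CPM in T-bet+ cDC2s, 12.7 and 11.2 CPM in T-bet- cDC2s and 12.7 and 13.5 in cDC1s, and RNA at 80.8, 93.7 and 114 in T-bet+ libraries, 25.4, 41.1 and 137 in T-bet- libraries and 419, 495 and 139.7 in cDC1 libraries. Its difference between T-bet- cDC2s and cDC1s (-2.37 ± 0.64, adjusted p = 0.0342, edgeR) was lost under 9 of 16 alternatives. Traf3, an adaptor that restrains Nfkb2 signalling, had a member 1703 bases upstream and calls in both spleen contrasts with cDC1s (adjusted p = 0.0485 and 0.0322, edgeR), which were lost under 13 and 9 of 16 alternatives.

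Cell cycle and metabolic genes also had even windows and uneven RNA. Ccnd1, the cyclin of the G1 phase, had a member 534 bases downstream of its start, with 19.7 and 20.1 CPM in T-bet+ cDC2s, 17.5 and 17.4 CPM in T-bet- cDC2s and 19.4 and 19.5 in cDC1s. Its RNA was at 370.0, 456 and 478 in T-bet+ libraries, 99.1, 159 and 178 in T-bet- libraries and 84.2, 83.5 and 86.1 in cDC1 libraries, highest in T-bet+ cDC2s, and was called against T-bet- cDC2s (1.58 ± 0.24, adjusted p = 0.0053, edgeR) and cDC1s (2.36 ± 0.24, adjusted p = 0.000155). Ccnb2, a mitotic cyclin, was at 67.4, 81.9 and 54.5 in T-bet+ libraries, 9.16, 10.6 and 6.95 in T-bet- libraries and 61.8, 54.8 and 29.1 in cDC1 libraries, lowest in T-bet- cDC2s (2.93 ± 0.34 for T-bet+ minus T-bet-, adjusted p = 0.0014, edgeR). Slc12a2, a sodium, potassium and chloride cotransporter, had a member 139 bases downstream, with 20.3 and 21.2 CPM in T-bet+ cDC2s, 24.4 and 21.2 CPM in T-bet- cDC2s and 23.7 and 25.03 in cDC1s. Its RNA was at 96.7, 70.5 and 76.5 in T-bet+ libraries, 27.5, 25.1 and 18.3 in T-bet- libraries and 10.7, 7.66 and 7.78 in cDC1 libraries, a graded order with no overlap between subsets, and differed between the cDC2 subsets by 1.78 ± 0.26 (adjusted p = 0.00464, edgeR).

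Pfkp, a phosphofructokinase of glycolysis, had 1 of the 5 most even members, at 10.1 and 9.77 CPM in T-bet+ cDC2s, 10.4 and 10.2 CPM in T-bet- cDC2s and 10.3 and 10.0 in cDC1s, and RNA at 53.0, 56.6 and 51.8 in T-bet+ libraries, 153, 94.1 and 102 in T-bet- libraries and 375, 396 and 419 in cDC1 libraries. It was lower in T-bet+ cDC2s than in cDC1s (-2.88 ± 0.23, adjusted p = 2.96e-05, edgeR) and than in T-bet- cDC2s (-1.11 ± 0.21, adjusted p = 0.0174). Got1, the cytosolic aspartate aminotransferase, was at 60.6, 56.4 and 53.3 in T-bet+ libraries, 289.9, 237 and 126 in T-bet- libraries and 248, 219.8 and 150.5 in cDC1 libraries, lowest in T-bet+ cDC2s (-1.94 ± 0.32 for T-bet+ minus T-bet-, adjusted p = 0.00832, edgeR). Hap1, which encodes a huntingtin-associated protein and has the even window printed above, was at 67.7, 83.1 and 86.7 in T-bet+ libraries, 160.0, 178 and 114 in T-bet- libraries and 10.9, 13.6 and 22.3 in cDC1 libraries, and both cDC2 subsets were above cDC1s (2.35 ± 0.31 and 3.27 ± 0.32, adjusted p = 0.000727 and 0.000126, edgeR). Exons of Ccnd1 and Pfkp overlap LTO1 and Pitrm1 on the other strand. The spleen calls named for Gpr171, Plcb4, Elk3, Nfe2l2, Ccnd1, Ccnb2, Slc12a2, Got1, Hap1, Cd81 between the cDC2 subsets and Pfkp against cDC1s kept their direction and side of the threshold under all 16 alternatives.

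**Figure D5:**
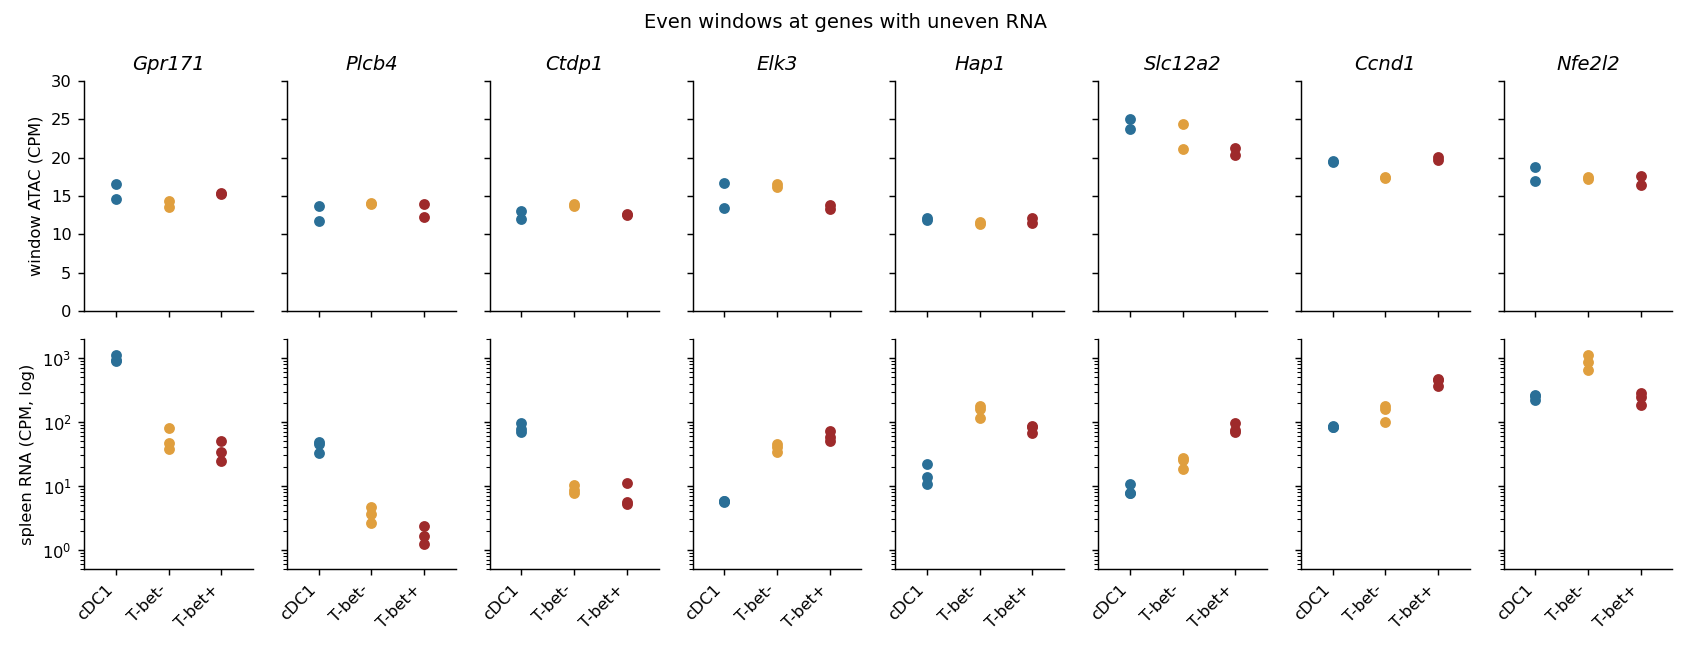
For 8 genes, the upper row gives the member window's ATAC CPM in each of the 6 libraries on a linear axis from 0, and the lower row the spleen RNA CPM in each of the 9 libraries on a log axis, by subset. The window values of each gene lie within 1.25-fold, whereas RNA differs by more than 10-fold between cDC1s and cDC2s at Gpr171.

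The named window was often only 1 of several at a start. At Ctdp1, a phosphatase of RNA polymerase II whose RNA was at 11.1, 5.30 and 5.65 in T-bet+ libraries, 7.68, 8.72 and 10.3 in T-bet- libraries and 96.0, 69.3 and 76.9 in cDC1 libraries in the spleen, the member lay 394 bases downstream, while windows 4 and 332 bases upstream were stronger, at 48.5 and 73.3 CPM, and uneven, with means of 57.1, 52.5 and 35.9 CPM and of 85.6, 83.7 and 50.7 CPM (T-bet+ cDC2, T-bet- cDC2, cDC1). Both were lowest in cDC1s, where its RNA was highest. Windows at some other starts were highest or lowest in cDC1s as the RNA was. Means in the same order were 6.31, 5.10 and 11.3 CPM at Cd81 (771 bases downstream). At Elk3 they were 8.21, 5.80 and 4.18 CPM (319 bases downstream) and 7.81, 6.32 and 2.41 CPM (1463 bases downstream). At Mrpl42, described further on, they were 2.34, 4.97 and 20.96 CPM (1121 bases downstream). How often such windows ran with or against the RNA was not counted. At Ccnd1 a window 1665 bases upstream had means of 33.1, 20.1 and 26.3 CPM in the same order. At Gpr171 the only other window within 2000 bases had a mean of 3.57 CPM. Of the 790 peaks with a member, 371 (47.0%) also passed the rule as whole peaks, and in 32 every window was a member, each a peak of 1 window.

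Other windows near the linked genes did differ. Within 50000 bases of a start, 290 of 639 linked genes (45.4%) had a window called between the cDC2 subsets (edgeR, adjusted p below 0.01 and more than 0.5 on the log2 scale either way), against 42.0% of 17814 genes, and 188 did without T-bet- cDC2 replicate 2. The counts were 559 (87.5%) against 80.4% for T-bet+ cDC2s and cDC1s, and 513 (80.3%) against 73.4% for T-bet- cDC2s and cDC1s. Linked genes had more windows nearby, a median of 17 against 13, and the mean share of windows called per gene was 4.54%, 19.7% and 14.2%, against 5.46%, 21.4% and 16.4% over all genes. In 5917 genes with another strong window at a start, with a median of 18 windows nearby, 51.9%, 91.9% and 85.6% had a window called. Near Gpr171 1, 8 and 8 of 21 windows were called in the 3 contrasts, near Elk3 8, 18 and 12 of 37, and near Hap1 1, 1 and 0 of 21. No member was called in any contrast, which the rule fixes.

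Lists of widely used genes held members at shares from 0% to 28.6% of their genes with a strong window. Of protein-coding genes with a strong window at a start, 556 of 5128 (10.8%) had a member, and so did 7 of 38 genes of cytoplasmic ribosomal proteins (Rpl14, Rpl34, Rpl5, Rps12, Rps20, Rps24 and Rps27l), 6 of 31 of mitochondrial ribosomal proteins and 4 of 34 respiratory chain and ATP synthase subunits. The same count was 2 of 15 for the proteasome, 2 of 23 for translation initiation factors, 3 of 20 for splicing factors, 4 of 33 for RNA polymerase II and Mediator, 2 of 14 for chaperones and ubiquitin, 1 of 15 for autophagy and 0 of 13 for aminoacyl tRNA synthetases. A list of CTCF, cohesin and associated factors had 2 of 7 (Nipbl and Yy1, of which Yy1 is neither CTCF nor a cohesin gene). Pattern recognition genes had 1 of 12 (Traf3) and antigen presentation genes 0 of 18. The markers of cDC1s, T-bet+ cDC2s, T-bet- cDC2s and all cDCs had 0 of 5, 4, 4 and 4. No cytoplasmic ribosomal protein gene with a member was called, and in the spleen none of the 80 tested on that list was called, with or without a member. In the MLN 1 of 82 was called, in T-bet+ cDC2s against cDC1s. In the spleen Rps20, for example, was at 189, 150.02 and 186 in T-bet+ libraries, 182, 287 and 126 in T-bet- libraries and 207, 123 and 161 in cDC1 libraries. Among genes with a member on the other lists, the splicing factor gene Prpf19 was higher in spleen cDC1s than in T-bet+ cDC2s (log2 fold change -0.95 ± 0.18, adjusted p = 0.00541, edgeR), and so was Mrpl42 of the mitochondrial ribosome (-1.32 ± 0.24, adjusted p = 0.00424). These counts cover the windows in the table: 64.6% of 11456 protein-coding genes tested in the spleen had any window within 2000 bases of a start.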

How the data were processed

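Per the labels and the study's methods, the authors aligned ATAC-seq reads with Bowtie2 2.2.5, kept uniquely mapped reads shifted for the transposase, called peaks on all replicates together with MACS2 2.1.1.20160309, kept reproducible peaks, and counted reads in 150-base windows centred on summits, so the deposited window values are raw counts. RNA reads were aligned with HISAT2 2.1.0 and counted per gene, also deposited as raw counts; whether counting used strand is not stated. The deposited peak file's score is a constant 0, and the deposited summit file holds the −log10 p of the authors' peak call; neither entered a comparison. No per-sample column was left unused (0).

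Windows were placed against GENCODE M21 starts on mm10 (GRCm38), not the authors' annotation release. RNA counts were tested with edgeR 4.0.16 (R 4.3.3, TMM, quasi-likelihood F-test, low-count filter, Benjamini-Hochberg) over all genes, calling an adjusted p under 0.05. Window counts were tested likewise and called at an adjusted p below 0.01 and a change of more than 0.5 on the log2 scale. Deviations of same-numbered spleen libraries of T-bet+ cDC2s and cDC1s correlated at 0.312, 0.186 and 0.152, a pairing read from the data and not given in the labels. DESeq2 1.42.0 was an alternative. Scripts were tested on counts simulated for T-bet+ cDC2s against cDC1s, with 100 features changed 2-fold and 100 changed 4-fold. The RNA test found 2 and 40 of these in the spleen and 2 and 38 in the MLN. The window test found 35 and 99. A gene that was not called may therefore still differ. Errors of fold changes are standard errors. RNA libraries held 20993220 to 29006549 counted reads. The text names the 12 strongest and 5 most even members, up to 3 windows on each side of each limit, up to 3 strongest holders of each motif, linked genes on the lists, and per contrast up to 5 (spleen) or 3 (MLN) called linked genes with the largest change each way among genes averaging 50 or more normalized counts, except for items not reported here. Members and lists were chosen with earlier results of these data known.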

Additional observations from a re-analysis of the deposited data

Results flagged for a closer look

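Elk3 differed in direction between the tissues. T-bet+ minus T-bet- cDC2s gave a log2 fold change of 0.60 (0.597) in the spleen and -0.57 (-0.5677) in the MLN, where every library of 1 tissue moved the opposite way to the other, with adjusted p of 0.175 and 0.705 (edgeR) within the tissues. The difference between the tissues itself was not tested.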

How the results depend on the processing

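The set itself depended on the rule. Against 873 windows, 528 passed with TMM scaling, 516 with DESeq2's size factors, 408 at a ratio of at most 1.2, 1623 at 1.3 and 494 at 20 CPM, and leaving out 1 library gave 1309 (without T-bet- cDC2 replicate 2) to 1959 (without T-bet+ cDC2 replicate 1), with 1470, 1477, 1388 and 1811 without T-bet+ 2, T-bet- 1, cDC1 1 and cDC1 2. The promoter share of 81.3% was 78.4% with TMM, 78.1% with DESeq2's size factors, 77.4% at 5 CPM, 73.0% over whole peaks, 72.7% within 500 bases of a start and 76.01% to 81.7% without 1 library.

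The linked genes called in the spleen numbered 16, 88 and 73 for T-bet+ against T-bet- cDC2s, T-bet+ cDC2s against cDC1s and T-bet- cDC2s against cDC1s. Leaving out 1 library gave 7 to 38, 50 to 114 and 34 to 122, while 2.03% to 8.30%, 11.6% to 20.3% and 9.57% to 20.3% of all genes were called. Members chosen with TMM gave 10, 48 and 38. The first was 32 with DESeq2 and 34 without a filter, the second 142 with library class as a term, chosen after seeing the data, and the third 35 with only the compared libraries. In the MLN the counts 0, 25 and 15 became 6, 61 and 39 with DESeq2 and 8, 61 and 44 without a filter. The latter 2 were 4 to 37 and 1 to 17 without 1 library, 40 and 24 for the closest gene within 50000 bases and 16 and 6 for members chosen with TMM, and the first of them was 14 with only the compared libraries. Without a filter the share called was higher in linked genes than in all genes for both MLN contrasts with cDC1s and all 3 spleen contrasts, for example 6.00% against 4.76% between the spleen cDC2 subsets. With DESeq2, whose shares are over all 34047 genes of the table, expressed or not, it was higher in all 6, at 5.64%, 20.5% and 13.9% against 4.19%, 9.81% and 8.57% in the spleen and 1.06%, 10.8% and 6.88% against 0.963%, 5.92% and 5.06% in the MLN. The causes were not tested.

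Replicate numbers paired the spleen libraries of T-bet+ cDC2s and cDC1s by their deviations and not those of the other contrasts, over which same-numbered libraries correlated as low as -0.643 in spleen RNA, -0.126 in MLN RNA and -0.058 in ATAC. In the MLN T-bet+ cDC2s and cDC1s correlated at 0.573 and 0.511, over 2 pairs only. With the replicate number as a block the calls were 9, 58 and 40 in the spleen (2.48%, 13.4% and 11.2% of all genes). In the MLN they were 0, 11 and 8 (0.00%, 3.52% and 3.37% of all genes). Of the named calls between spleen T-bet+ cDC2s and cDC1s in the text, the block ended that of Traf3.

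Genes with another window called within 50000 bases numbered 290, 559 and 513. Within 10000 bases they numbered 92, 367 and 281, DESeq2 gave 174 for the first, and leaving out 1 library gave 188 (without T-bet- cDC2 replicate 2) to 303, 479 to 567 and 397 to 540. Of the values of named genes under alternatives, 1825 kept their direction and side of the threshold, 136 lost a call and 19 gained one.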
